A study of Mus musculus with 9 samples.

Results

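Iron uptake, storage and export genes were followed in mouse bone marrow-derived macrophages (BMDMs) on their way to osteoclasts. The set held 10 genes, chosen by name for their known role in moving or keeping iron: Tfrc, Slc11a2, Steap3, Steap4, Slc11a1, Fth1, Ftl1, Slc40a1, Cp and Heph. All 10 were found among the 28379 genes of the table. Primary BMDMs came from C57BL/6J mice aged 10 weeks and were held in 20 ng/ml M-CSF, the macrophage growth factor, in every group. No RANKL was added in the PBS group. RANKL, the cytokine that turns macrophages into osteoclasts, was given at 100 ng/ml in the RANKL group, and cells of the RANKL + Vit D + K group were given the same RANKL dose with vitamin D (calcitriol) at 1000 nM and vitamin K (menaquinone-4, MK4) at 20 μM by the labels, while the study's methods state a higher MK4 dose. All groups were collected at 48 h as bulk poly(A) RNA, with 3 libraries per group. There was no group with 1 vitamin alone or with the vitamins and no RANKL, so the effect of each vitamin cannot be told apart. The libraries were made from pooled RNA and the sources do not say which cultures stood behind each, so p-values measure only the spread between these samples.

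Cells take up transferrin-bound iron through the transferrin receptor, reduce it in the endosome and carry it across the endosomal membrane to the cytosol, where ferritin stores what is not used. The only known cellular iron exporter is ferroportin, and copper-containing ferroxidases oxidise the iron that it releases. Macrophages recover iron from engulfed red cells and return it through ferroportin, whereas osteoclasts are rich in mitochondria and their formation is known to draw on transferrin receptor-mediated iron uptake. Several of these messages carry an iron responsive element, a short stem-loop that iron regulatory proteins bind when the cell is short of iron. Binding in a 5′ UTR blocks translation, and binding in a 3′ UTR protects the message from decay, so protein can change where mRNA does not.

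The iron responsive elements are shown first because they divide the set by a feature of sequence. The UTRs of annotated coding transcripts in GENCODE M21 (GRCm38) were searched for the bulged C, 5 bases, the letters CAGTG, then A, C or T, and 5 bases able to pair with the first 5. At least 4 of 5 pairs had to form, with G-T pairs counted. Of the 10 genes, 5 held a match. Fth1 (chr19:9982732-9982760, plus strand), Ftl1 (chr7:45459779-45459807, minus strand) and Slc40a1 (chr1:45925465-45925493, minus strand) held 1 site each in the 5′ UTR. Slc11a2 held 1 site in the 3′ UTR of 1 transcript (chr15:100395153-100395181, minus strand), with 4 of 5 pairs. Tfrc held 4 sites in the 3′ UTR on the plus strand (chr16:32631219-32631247, chr16:32631598-32631626, chr16:32631663-32631691 and chr16:32631710-32631738). Each is printed below from 5′ to 3′ with the loop in capitals, and the other 7 sites all had 5 of 5 pairs.
Fth1 5′ UTR: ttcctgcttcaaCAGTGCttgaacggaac
Ftl1 5′ UTR: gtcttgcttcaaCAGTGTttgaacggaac
Slc40a1 5′ UTR: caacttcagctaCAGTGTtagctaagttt
Slc11a2 3′ UTR: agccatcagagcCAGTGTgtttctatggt
Tfrc 3′ UTR, site 1: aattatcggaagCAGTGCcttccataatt
Tfrc 3′ UTR, site 2: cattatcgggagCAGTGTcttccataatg
Tfrc 3′ UTR, site 3: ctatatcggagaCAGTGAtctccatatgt
Tfrc 3′ UTR, site 4: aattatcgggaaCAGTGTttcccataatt

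The same pattern was found in a 5′ UTR of 143 of 21901 coding genes (0.653%) and in a 3′ UTR of 664 (3.03%), so a match is a description of letters and not of a working element. Slc11a1, Steap3, Steap4, Cp and Heph held no match.

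Total counts per library lay between 65915112 and 68229647, so depth differed little between groups. Mitochondrial genes took 2.54 to 2.67% of counts in PBS, 3.06 to 3.26% in RANKL and 2.58, 3.02 and 2.63% in vitamin replicates 1, 2 and 3, and the part of this in the results was not tested. Replicate 2 of RANKL + Vit D + K stood somewhat apart. Its log2 CPM values (counts scaled to library size) correlated with those of replicates 1 and 3 at Pearson's r of 0.951 and 0.960 across 17002 genes, against 0.975 between those 2 and 0.966 to 0.977 within the other groups. Several values are given also without it. The 7 macrophage markers examined were expressed in every group, with a summed FPKM (a level corrected for the length of each gene and for depth) of 26362 to 30532 in PBS, 16671 to 24245 in RANKL and 4529 to 11552 in RANKL + Vit D + K. Most of that sum was Lyz2, and in the vitamins against RANKL 4 of the 7 were lower (Csf1r, Adgre1, Lyz2 and Mertk), Cd68 was higher (log2 0.53, adjusted p = 0.0143) and Itgam and Mrc1 did not pass. Of 9 osteoclast markers, the sum was 22.9 to 30.4 in PBS, 487 to 1018 in RANKL and 58.2 to 93.1 with the vitamins, and Calcr was listed at 0 in all PBS and vitamin libraries. In the vitamins against RANKL all but Atp6v0d2 (log2 -0.23, adjusted p = 0.701) were lower. Against PBS the vitamin group was higher for Atp6v0d2, Dcstamp, Mmp9 and Ctsk and lower for Nfatc1, and the rest did not pass. The sum of 8 neutrophil markers was 11.1 to 128, 11.3 to 148 and 0.551 to 1.72 in the same order, and erythroid, lymphoid, dendritic, mast and stromal lists were each below 0.6 FPKM in every library. Only 6 of 9 erythroid, 2 of 5 lymphoid and 1 of 4 mast markers were in the table, so low sums of these lists say little. The part of these differences in cell makeup in the results below was not tested, and in bulk RNA fewer cells of a type cannot be told apart from less RNA per cell.

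By level, the 2 ferritin chains stood far above the rest of the set. In the PBS group the mean FPKM fell from Ftl1 at 8604 through Fth1 at 2563, Slc11a1 at 183, Slc40a1 at 47.5, Tfrc at 29.3, Slc11a2 at 11.7 and Steap3 at 4.19 to Cp at 0.163, Steap4 at 0.0212 and Heph at 0.0138. The libraries of neighbours in this order did not overlap, apart from Steap4 and Heph. In the RANKL group Slc40a1 (9.75 to 13.2) and Slc11a2 (10.7 to 12.0) overlapped, and Tfrc stood above both. In the RANKL + Vit D + K group Slc40a1 (15.7 to 40.5), Slc11a2 (17.1 to 31.1) and Tfrc (15.1 to 19.9) all overlapped. By mean FPKM, Ftl1 ranked 2 of all genes in PBS, 3 in RANKL and 1 with the vitamins, and Fth1 ranked 8, 20 and 4.

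**Figure D1:**
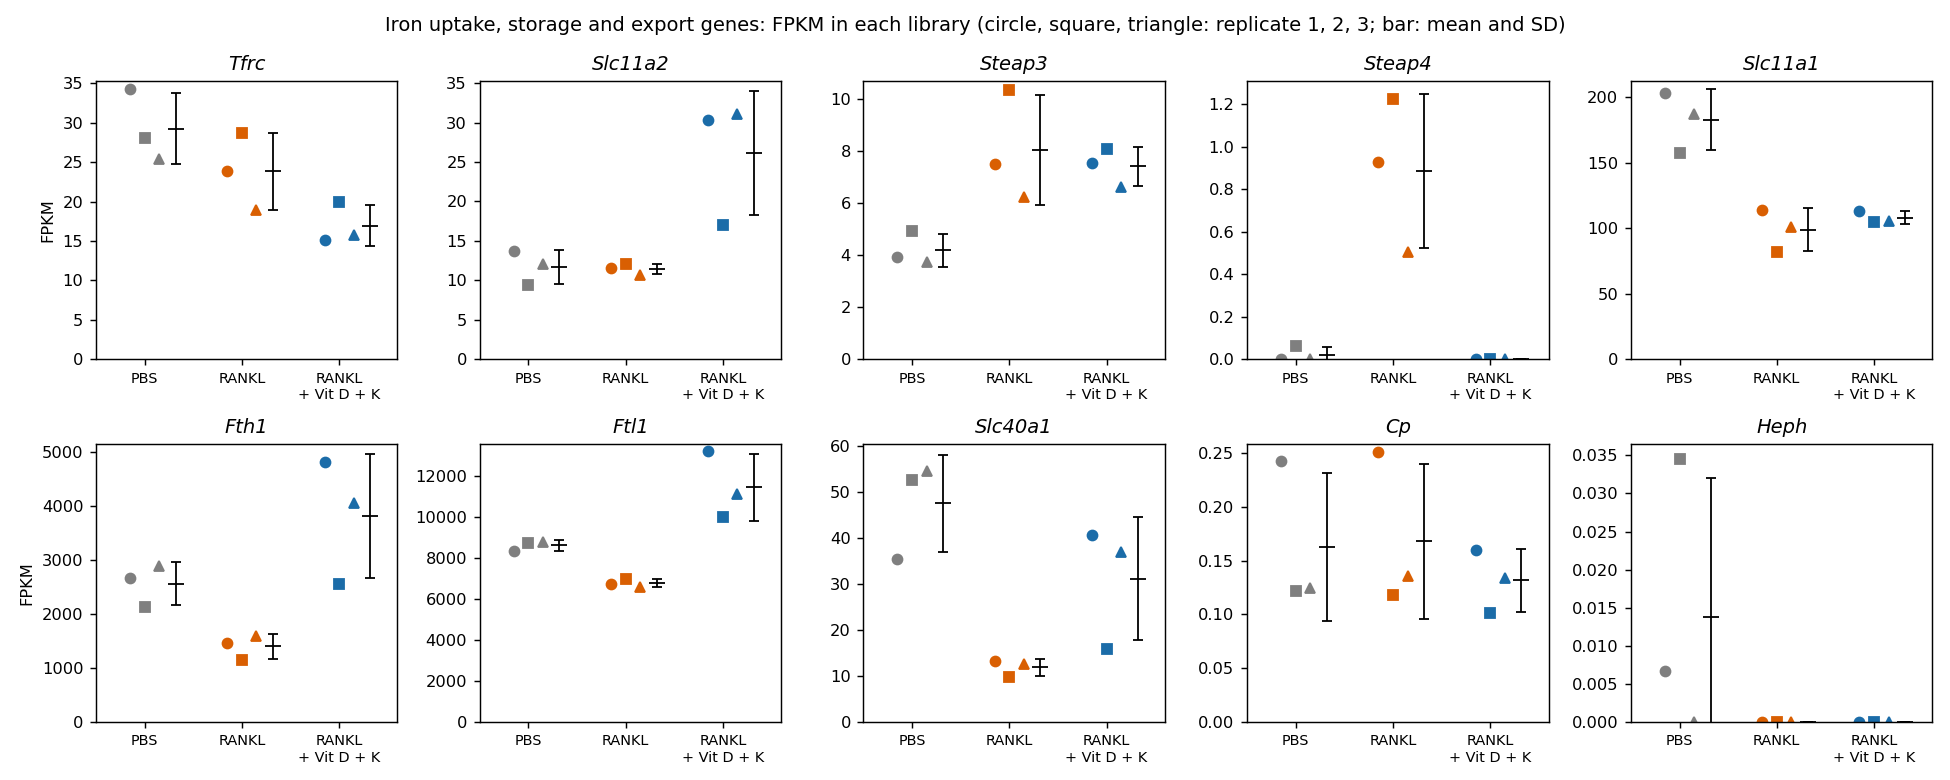
FPKM of each of the 10 genes (vertical axis, from 0, with a scale of its own in each panel) in each library of the PBS, RANKL and RANKL + Vit D + K groups. Circles, squares and triangles are replicates 1, 2 and 3, and the bars are the mean and SD of 3 libraries, cut at 0. Ferritin and Slc40a1 sit lowest with RANKL alone, Slc11a2 sits highest with the vitamins, and Steap4 is near 0 outside the RANKL group.

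The groups give 3 comparisons. RANKL against PBS asks what the osteoclast stimulus does, the vitamins with RANKL against RANKL asks what the vitamins change, and the vitamins with RANKL against PBS asks how far the cells differ from cells kept without RANKL for the same time. Each pair of comparisons shares 3 libraries, so their values are set side by side and are not independent. Of the 10 genes, 9 passed the filter on low counts. Heph did not, with counts of 4, 20 and 0 in PBS and 0 in the 6 other libraries. All fold changes are log2 values from edgeR's quasi-likelihood test on counts, with p adjusted over the 17002 genes tested.

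With RANKL, ferroportin (Slc40a1) and the phagosomal transporter Slc11a1 fell and the endosomal reductase Steap3 rose. These were the 3 genes of 9 that passed the test in RANKL against PBS, 1 higher and 2 lower, where 2.35% of all genes tested were higher and 1.26% lower. On FPKM with limma and a pseudocount of 0.1, 605 genes were higher and 207 lower, against 400 and 214 here. The median log2 fold change was -0.43 over the 9 genes and -0.04 over all genes. The CPM of the groups did not overlap for 7 of the 9, against 35.7% of all genes tested.

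With the vitamins, both ferritin chains, ferroportin and Slc11a2 rose over RANKL alone and Steap4 was listed at 0. Of 9 genes, 4 were thus higher and 1 lower in RANKL + Vit D + K against RANKL, where 16.4% of all genes tested were higher and 17.2% lower. With limma on log2(FPKM + 0.1), 2184 genes were higher and 3953 lower, against 2796 and 2929 here, and the median of all genes was -0.16 in place of -0.04. The median over the 9 genes was 0.27. The groups did not overlap for 5 of the 9, against 46.8% of all genes.

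Against PBS, the vitamins with RANKL left Tfrc and Slc11a1 lower and Slc11a2, Steap3 and Ftl1 higher. These were 3 genes higher and 2 lower of 9, where 19.8% of all genes tested were higher and 21.0% lower. The median over the 9 genes was -0.27 and that of all genes -0.04. The groups did not overlap for 5 of the 9, against 53.1% of all genes.

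**Figure D2:**
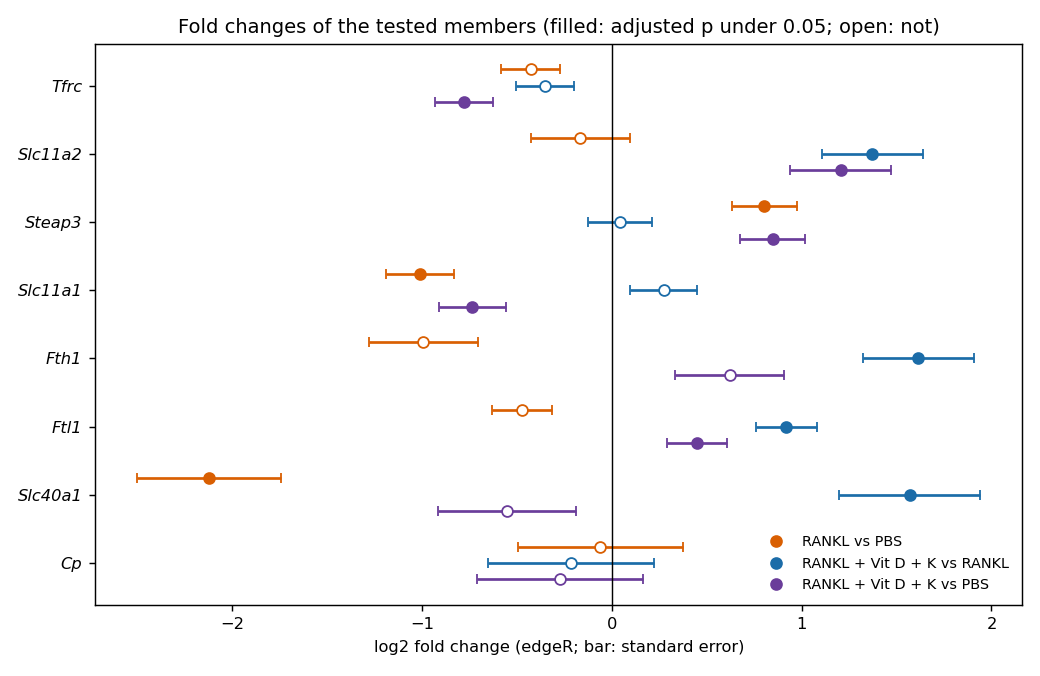
Log2 fold change from edgeR (horizontal axis, with its standard error as a bar) of 8 tested genes in the 3 comparisons; Steap4, whose vitamin libraries were all at 0, is left out. Filled points passed an adjusted p of 0.05 and open points did not. Slc40a1 moved from -2.12 in RANKL against PBS to 1.57 in the vitamins against RANKL, and Slc11a2 was higher in both comparisons of the vitamin group.

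Tfrc (chr16:32608920-32632794, plus strand) encodes the transferrin receptor, which brings transferrin-bound iron into the cell. Its FPKM was 34.3, 28.1 and 25.4 in the PBS libraries, 23.8, 28.8 and 19.0 in the RANKL libraries and 15.1, 19.9 and 15.7 in the vitamin libraries. By FPKM, the RANKL libraries overlapped both other groups, and every vitamin library lay below every PBS library. The log2 fold change was -0.43 (SE 0.153, adjusted p = 0.173) in RANKL against PBS and -0.35 (SE 0.153, adjusted p = 0.108) in the vitamins against RANKL, and neither passed, although both did with voom and quality weights (adjusted p = 0.0183 and 0.0369). The vitamin group was lower than PBS by a log2 fold change of -0.78 (SE 0.154, adjusted p = 0.00431), a fold of 0.583, and this held in all 20 alternative settings.

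Slc11a2 (chr15:100387898-100424092, minus strand) encodes DMT1, which carries ferrous iron from the endosome to the cytosol. Its FPKM was 13.7, 9.43 and 12.0 in PBS, 11.5, 12.0 and 10.7 in RANKL and 30.4, 17.1 and 31.1 in RANKL + Vit D + K. The PBS and RANKL libraries overlapped, and all 3 vitamin libraries lay above them, with replicate 2 the lowest. The vitamin group was 2.59-fold higher than RANKL (log2 1.37, SE 0.266, adjusted p = 0.00563) and 2.31-fold higher than PBS (log2 1.21, SE 0.265, adjusted p = 0.00694). Without replicate 2 of the vitamin group the log2 values were 1.65 and 1.48, and over all alternatives they ran from 1.08 to 1.65 and from 1.06 to 1.48. RANKL and PBS differed by -0.17 (SE 0.262, adjusted p = 0.803). These are counts per gene, so the transcript that carries the 3′ UTR site was not separated from the others.

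Steap3 (chr1:120190757-120271082, minus strand) encodes the main ferrireductase of the transferrin endosome in red cell precursors, and Steap4 (chr5:7960457-7982213, plus strand) encodes a related reductase known from inflammation. Steap3 FPKM was 3.93, 4.92 and 3.73 in PBS, 7.50, 10.4 and 6.23 in RANKL and 7.56, 8.09 and 6.61 with the vitamins. Every library with RANKL, with or without the vitamins, lay above every PBS library. Steap3 rose 1.75-fold with RANKL (log2 0.80, SE 0.172, adjusted p = 0.0388) and was 1.80-fold above PBS with the vitamins (log2 0.85, SE 0.172, adjusted p = 0.00480). The vitamin and RANKL groups differed by 0.04 (SE 0.170, adjusted p = 0.868), a direction that turned to -0.09 with limma on FPKM. The call in RANKL against PBS was lost when any PBS library, RANKL replicate 1 or 2, or vitamin replicate 3 was left out (adjusted p = 0.0578 to 0.158), and with no filter on low counts (0.0544).

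Steap4 was low throughout. Its FPKM was 0, 0.0634 and 0 in PBS and 0.925, 1.22 and 0.502 in RANKL, and it was listed at 0 in the 3 vitamin libraries, with counts of 124 to 289 in the RANKL libraries. Only the RANKL libraries held more than 16 counts. In RANKL against PBS the test was not passed (log2 5.14, SE 1.296, adjusted p = 0.0838), but it was passed without PBS replicate 2, the only PBS library with a count (adjusted p = 0.0256), without vitamin replicate 2 (adjusted p = 0.0359), with limma on FPKM, with only the groups compared, with counts divided by 4 and with voom and quality weights. With the vitamins Steap4 fell at least 62.6-fold from RANKL, taken against a floor of 3 counts in each vitamin library (adjusted p = 0.00781). This bound takes each count as 1 fragment, which was not tested, and would be lower if several counts came from 1 fragment. Of the 10 genes, Steap4 was the only one with counts in every RANKL library and at or near 0 in both other groups. The osteoclast marker sum was also highest in the RANKL group, and its part in the Steap4 result was not tested.

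Slc11a1 (chr1:74375195-74386052, plus strand) encodes NRAMP1, which moves iron and other metals out of the macrophage phagosome. Its FPKM was 204, 158 and 187 in PBS, 114, 81.6 and 101 in RANKL and 114, 105 and 106 in RANKL + Vit D + K. Every PBS library lay above the 6 others, and the RANKL and vitamin libraries overlapped. Slc11a1 fell 2.01-fold with RANKL (log2 -1.01, SE 0.179, adjusted p = 0.0199) and was 1.66-fold below PBS with the vitamins (log2 -0.73, SE 0.178, adjusted p = 0.0107). The vitamin and RANKL groups differed by 0.27 (SE 0.177, adjusted p = 0.261). The call in RANKL against PBS was lost when PBS replicate 1 or 3, or RANKL replicate 2 or 3, was left out (adjusted p = 0.0547 to 0.0916).

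Fth1 (chr19:9980598-9985092, plus strand) encodes the ferritin heavy chain, which oxidises iron as it enters the ferritin shell. Its FPKM was 2670, 2128 and 2892 in PBS, 1466, 1143 and 1588 in RANKL and 4826, 2556 and 4058 with the vitamins. The RANKL libraries lay below all others, and vitamin replicate 2 fell within the PBS range. The difference between RANKL and PBS was -0.99 (SE 0.288, adjusted p = 0.0985), which did not pass. It passed in 5 of 21 alternatives. With the replicate number as a block it was -1.003 (adjusted p = 0.0161), and the others were the fit without vitamin replicate 2 (0.0177), DESeq2 (0.0164), only the groups compared (0.0240) and voom with quality weights (0.00260). The vitamin group was 3.06-fold higher than RANKL (log2 1.61, SE 0.292, adjusted p = 0.00425). The log2 value was 1.88 without vitamin replicate 2 and 1.36 without vitamin replicate 1. Against PBS the vitamin group differed by 0.62 (SE 0.286, adjusted p = 0.111), which did not pass. It passed without vitamin replicate 2 (0.89, adjusted p = 0.00805), with the block (adjusted p = 0.0211) and with voom and quality weights (adjusted p = 0.00107).

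Ftl1 (chr7:45457944-45459884, minus strand) encodes the ferritin light chain, which helps the iron core form. Its FPKM was 8313, 8711 and 8786 in PBS, 6730, 6979 and 6597 in RANKL and 13231, 10005 and 11090 with the vitamins. The 3 groups did not overlap, with RANKL lowest and the vitamin group highest. RANKL and PBS differed by -0.47 (SE 0.159, adjusted p = 0.148), which did not pass. It passed in 3 of 21 alternatives: without vitamin replicate 2 (adjusted p = 0.0383), with only the groups compared (0.0375) and with voom and quality weights (0.00374). The vitamin group was 1.89-fold higher than RANKL (log2 0.92, SE 0.160, adjusted p = 0.00367) and 1.36-fold higher than PBS (log2 0.45, SE 0.159, adjusted p = 0.0489). Without vitamin replicate 2 these log2 values were 1.07 and 0.60, and over all alternatives they ran from 0.75 to 1.07 and from 0.33 to 0.60. The call against RANKL was lost with limma on log2(FPKM + 0.1) and log2(FPKM + 1), at an adjusted p of 0.0641 and 0.0539. The call against PBS was lost with limma on FPKM, with only the groups compared (adjusted p = 0.104) and when any library other than vitamin replicate 2 was left out (at most 0.0858).

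Reads of ferritin can be shared with its processed pseudogenes. The 4 pseudogenes in the table held at most 18428 counts in a library, in Ftl1-ps1, where Ftl1 itself held 674306 to 1324687. Adding their counts to the parent genes left the log2 fold change of the vitamins against RANKL at 1.61 for Fth1 and 0.92 for Ftl1. Ftl1 also overlaps Gm10252 on the opposite strand (at most 11178 counts), and whether the counting used strand is not stated.

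Together the 2 chains took 2.13 to 2.47% of all counts in PBS, 1.48 to 1.64% in RANKL and 2.52 to 3.85% in the vitamin group. The ratio of Ftl1 to Fth1 FPKM was 3.11, 4.09 and 3.04 in PBS, 4.59, 6.11 and 4.15 in RANKL and 2.74, 3.91 and 2.73 with the vitamins. RANKL libraries had the highest ratios and did not overlap the other groups, and replicate 2 was the highest of each group. On the log2 scale the mean ratio differed by 0.53 between RANKL and PBS and by -0.66 between the vitamins and RANKL. The exact two-sided permutation test gave p = 0.1 for each, the smallest that 3 libraries against 3 allow, and p = 0.5 for the vitamins against PBS (-0.13). With p-values adjusted over these 3 tests none could pass. Between same-numbered PBS and RANKL libraries the log2 ratio differed by 0.56, 0.58 and 0.45, higher with RANKL in 3 of 3 pairs, and the exact two-sided paired permutation test gave p = 0.25, the smallest that 3 pairs allow.

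**Figure D3:**
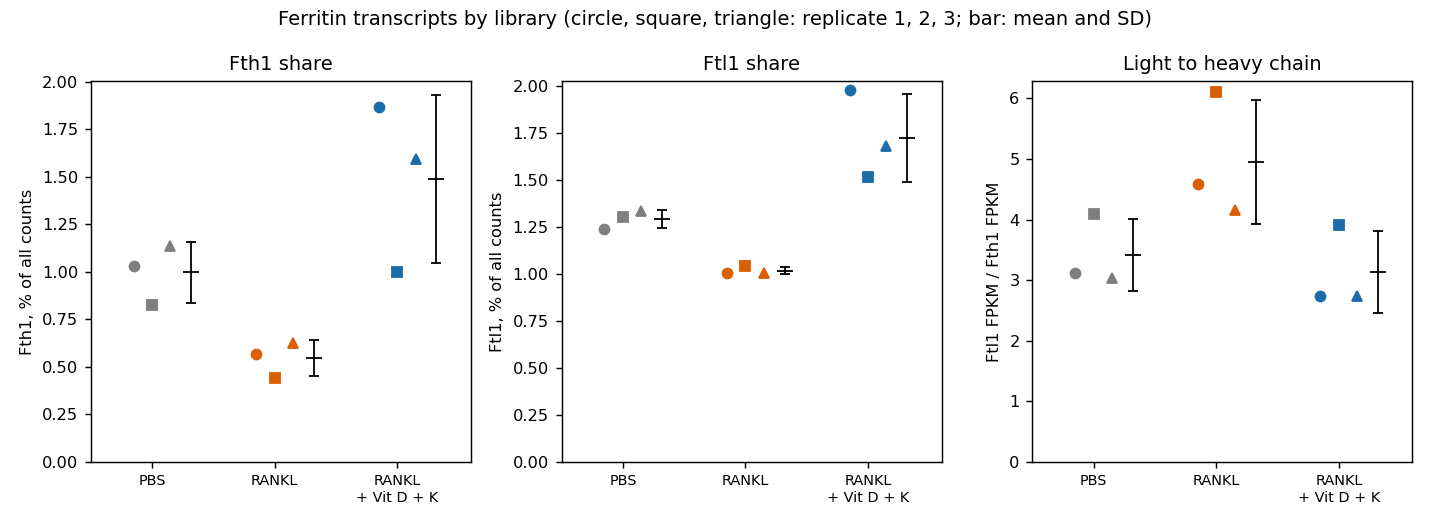
Fth1 and Ftl1 as a percentage of all counts (left and middle panels) and the ratio of Ftl1 to Fth1 FPKM (right panel) in each library, with all vertical axes from 0. Circles, squares and triangles are replicates 1, 2 and 3, and bars are the mean and SD of 3 libraries. Both shares are lowest in the RANKL group and the ratio is highest there, from 4.15 to 6.11.

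Slc40a1 (chr1:45908068-45926523, minus strand) encodes ferroportin. Its FPKM was 35.4, 52.4 and 54.6 in PBS, 13.2, 9.75 and 12.6 in RANKL and 40.5, 15.7 and 36.9 in RANKL + Vit D + K. The RANKL libraries lay below all others, the vitamin libraries spread between RANKL and PBS levels, and vitamin replicate 2 lay just above the RANKL range. Ferroportin fell 4.35-fold with RANKL (log2 -2.12, SE 0.378, adjusted p = 0.0199), the largest change of a gene that passed in that comparison of the set. The size changed little (-2.24 to -1.94) but the call was lost when any 1 of the 6 PBS and RANKL libraries was left out (adjusted p = 0.0516 to 0.0879). The vitamin group was 2.97-fold higher than RANKL (log2 1.57, SE 0.371, adjusted p = 0.0122). The log2 value was 1.92 without vitamin replicate 2 and 1.28 without vitamin replicate 1 (adjusted p = 0.0386). Against PBS the vitamin group differed by -0.55 (SE 0.363, adjusted p = 0.254), and by -0.20 without vitamin replicate 2 (adjusted p = 0.466). Over all alternatives that difference ran from -0.79 to -0.20.

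The ferroxidases that serve ferroportin were scarcely expressed. Cp (chr3:19957054-20009145, plus strand), ceruloplasmin, had 0.242, 0.122 and 0.124 FPKM in PBS, 0.251, 0.118 and 0.135 in RANKL and 0.160, 0.101 and 0.134 with the vitamins, from 77 to 186 counts. The 3 groups overlapped, and the log2 fold changes of -0.06, -0.21 and -0.27 all had SE of about 0.44 and did not pass (adjusted p = 0.962, 0.739 and 0.652). Cp overlaps Hps3 on the opposite strand, which held up to 7270 counts, so the few Cp counts are uncertain. Heph (chrX:96455359-96574485, plus strand), hephaestin, was at most 0.0346 FPKM in PBS and listed at 0 in the other groups. It was not tested.

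Set against the stem-loops printed above, 5 tested genes held a match and 4 did not, and their calls are given as a description with no test of the difference. In the vitamins against RANKL, 4 of the 5 with a match were higher (Fth1, Ftl1, Slc40a1 and Slc11a2) and Tfrc was not called, while of the 4 without a match 1 was lower (Steap4) and 3 were not called, where 16.4% of all genes were higher and 17.2% lower. In RANKL against PBS, 1 of the 5 (Slc40a1) was lower, and of the other 4, 1 was higher and 1 lower, where 2.35% of all genes were higher and 1.26% lower. In the vitamins against PBS 3 of the 5 with a match were called, 2 higher and 1 lower, and 2 of the 4 without one, 1 in each direction, where 19.8% of all genes were higher and 21.0% lower. Of the 2 genes with the site in the 3′ UTR, Slc11a2 rose with the vitamins and Tfrc had a log2 fold change of -0.35. These are mRNA levels, and the protein was not measured here.

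Promoter windows from RefSeq (GRCm38.p6, 250 bases before to 50 after a start) were matched for 7 of the genes. They were searched on both strands for the antioxidant response element TGACNNNGC, the AP-1 motif TGANTCA and the E-box CACGTG, which were found in 12.4%, 7.81% and 7.15% of 32851 windows. Only Cp held a match, to AP-1, at position -177 from its start. No match in these windows says only that the letters are not there.

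Over the 9 libraries, the genes whose log2 CPM were most like Tfrc were Gm13405, Ercc2 and Apc2, with Pearson's r of 0.981, 0.974 and 0.965. For Slc40a1 they were Sypl, Gtf3c1 and Wls, with r of 0.982, 0.980 and 0.978. Gm13405 and Apc2 were below 0.3 FPKM in every group mean. These correlations share the 3 groups and the same 9 libraries and are given as a description.

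Around the set, 74 other iron genes in 7 lists were examined, of which 68 were in the table and 61 were tested. In RANKL against PBS 4 were higher and 3 lower (6.56% and 4.92%, where all genes gave 2.35% and 1.26%). In the vitamins against RANKL 15 were higher and 15 lower (24.6% each, against 16.4% and 17.2% of all genes), and in the vitamins against PBS 15 were higher and 16 lower (24.6% and 26.2%, against 19.8% and 21.0%). The median log2 fold change was 0.06, -0.07 and -0.06. The counts in the single lists are to be read against the same shares of all genes.

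The genes of heme import, export and breakdown held all 3 of the lower calls with RANKL, out of 10 tested. Hmox1 encodes heme oxygenase-1, which frees iron from heme. Its FPKM was 216, 262 and 264 in PBS, 147, 128 and 107 in RANKL and 260, 271 and 218 with the vitamins. It fell with RANKL (log2 -1.08, SE 0.149, adjusted p = 0.00817), a call lost without PBS replicate 3 (adjusted p = 0.0522), and with the vitamins it was 2.17-fold above RANKL (log2 1.12, SE 0.149, adjusted p = 0.00132), with no overlap. Slc48a1, which carries heme out of the phagolysosome, fell from a mean FPKM of 174 to 103 with RANKL (log2 -0.88, adjusted p = 0.0121), and Blvrb, a biliverdin reductase, from 77.0 to 52.5 (log2 -0.68, adjusted p = 0.0193). With the vitamins Slc48a1 was 72.9 and Blvrb 58.1, and neither passed against RANKL (adjusted p = 0.0662 and 0.0815). Blvrb passed there with the replicate block (log2 0.30, adjusted p = 0.0423). The heme exporter Flvcr1 was 15.4, 15.1 and 16.7 in RANKL and 57.3, 25.8 and 52.0 with the vitamins (log2 1.70, SE 0.302, adjusted p = 0.00401). Its log2 value was 2.01 without vitamin replicate 2, again the lowest of the vitamin group, and 1.43 without vitamin replicate 1. Of the 10, 3 were higher and 4 lower in the vitamins against RANKL. The lower genes were Hmox2, a second heme oxygenase (log2 -0.53, adjusted p = 0.00787), Blvra, a biliverdin reductase (log2 -0.42, adjusted p = 0.0141), Cd163, the hemoglobin-haptoglobin receptor, and the transporter Abcg2 (0.510 against 1.299 FPKM, log2 -1.22, adjusted p = 0.0104). Cd163 was at 0.208 against 0.852 FPKM (log2 -1.95, adjusted p = 0.0448). Its log2 value was -2.98 without vitamin replicate 2 and -1.43 without vitamin replicate 1.

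Among other uptake genes, 3 of 7 tested rose and 3 fell with the vitamins against RANKL, and 0 passed with RANKL against PBS, 0 also at an unadjusted p under 0.05 in edgeR and 0 in DESeq2. Slc39a8 (ZIP8) and Slc39a14 (ZIP14), which import iron not bound to transferrin as well as zinc, rose from a mean FPKM of 0.746 to 2.47 (3.73-fold, adjusted p = 0.00327) and from 1.74 to 4.50 (2.85-fold, adjusted p = 0.000241). No library of the groups overlapped for either. Of the genes that fell, Ltf (lactoferrin) and Lcn2 (lipocalin-2) are granule proteins of neutrophils. Ltf was 6.01, 7.05 and 0.554 FPKM in RANKL and 0 in all vitamin libraries, and Lcn2 was 2.65, 3.77 and 0.419 against 0.0746, 0.00931 and 0.0584. Both were lowest in RANKL replicate 3, and the neutrophil marker sum ran from 11.3 to 148 in the RANKL group and from 0.551 to 1.72 with the vitamins. Ltf is itself a member of that sum. The part of neutrophils in the fall of Ltf and Lcn2 was not tested. Slc22a17, a lipocalin-2 receptor, was at most 0.178 FPKM in RANKL and at most 0.0366 with the vitamins (adjusted p = 0.0451), where it was listed at 0 outside replicate 2 (adjusted p = 0.00117 without that library).

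In the iron sensing and hepcidin list 1 of 5 tested genes rose and 2 fell with the vitamins against RANKL, and 0 passed with RANKL, where edgeR gave 1 at an unadjusted p under 0.05 and DESeq2 called 1. Fbxl5, the iron-sensing subunit of the ligase that removes iron regulatory protein 2, rose from 7.55, 6.79 and 7.34 FPKM to 15.1, 12.8 and 15.5 (log2 1.16, SE 0.156, adjusted p = 0.00137). Its difference between RANKL and PBS was -0.65 (adjusted p = 0.0549), and it passed with the replicate block (-0.64, adjusted p = 0.0167). Hfe, a partner of the transferrin receptor, fell from 34.5, 23.5 and 32.8 to 5.31, 10.9 and 7.11 (log2 -1.85, SE 0.235, adjusted p = 0.00112). Its log2 value was -2.08 without vitamin replicate 2 and -1.66 without vitamin replicate 1. Neither gene's groups overlapped, and for Hfe replicate 2 of the vitamin group was again nearest to the RANKL libraries.

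Mitochondrial iron and iron-sulfur genes included 2 of 15 that rose with RANKL. Bola3, an iron-sulfur assembly factor, went from a mean FPKM of 0.446 to 1.57 (log2 1.65, adjusted p = 0.0158), and Abcb8, a mitochondrial transporter, from 5.53 to 9.72 (log2 0.69, adjusted p = 0.0463). With the vitamins against RANKL 3 of the 15 were higher and 4 lower. Of the 8 heme synthesis genes 0 passed edgeR's test with RANKL (1 at an unadjusted p under 0.05, 0 in DESeq2), and 1 rose and 2 fell with the vitamins against RANKL. Of the 8 cytosolic chaperone and assembly genes 0 passed in edgeR or DESeq2 in either comparison, with 1 at an unadjusted p under 0.05 for RANKL and 0 for the vitamins.

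Of 8 regulators that act on iron genes, 2 rose with RANKL and 4 with the vitamins against RANKL. Myc, which is known to raise Tfrc and repress Fth1, was 0.217, 0.636 and 0.345 FPKM in PBS, 4.005, 14.04 and 2.57 in RANKL and 48.1, 18.5 and 25.0 with the vitamins. It rose by 3.93 (SE 0.719, adjusted p = 0.0217) and then by 2.37 (SE 0.651, adjusted p = 0.0219) in log2, and the 3 groups did not overlap. RANKL replicate 2 was the highest of its group, and without it these values were 2.94 and 3.36. Over all alternatives the value for the vitamins against RANKL ran from 1.80 to 3.36. Spic, the factor of heme-recycling macrophages, rose from 0.409, 0.128 and 0.402 in PBS to 2.66, 2.29 and 2.46 in RANKL (log2 2.83, SE 0.489, adjusted p = 0.0183) and was 1.20, 0.608 and 1.25 with the vitamins. The vitamins against RANKL did not pass (log2 -1.09, adjusted p = 0.0953), but did with the replicate block (-1.23, adjusted p = 0.0232). Spic stayed above PBS with the vitamins (log2 1.74, adjusted p = 0.0175).

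Most of these calls in RANKL against PBS were lost when 1 of several libraries was left out, while the log2 fold changes kept their direction. Leaving out a PBS or RANKL library also lowered the number of calls over all genes, from 400 higher and 214 lower to between 96 and 227 higher and between 30 and 89 lower. Myc was lost without any PBS library or RANKL replicate 1 or 2, Spic and Slc48a1 without PBS replicate 1 or 3 or RANKL replicate 1 or 2, and Bola3 without PBS replicate 2 or 3 or RANKL replicate 2. Blvrb was lost without any PBS library or RANKL replicate 2 or 3, and Abcb8 without any of the 6 or vitamin replicate 3. The adjusted p was at most 0.108 for Myc, 0.0619 for Spic, 0.0838 for Slc48a1, 0.0723 for Bola3, 0.104 for Blvrb and 0.158 for Abcb8. The log2 fold change with 1 library left out ran from 2.94 to 4.47 for Myc, from 2.504 to 3.124 for Spic, from -0.91 to -0.78 for Slc48a1 and from 1.46 to 1.95 for Bola3. It ran from -0.77 to -0.59 for Blvrb and from 0.58 to 0.84 for Abcb8, whose call was also lost with no filter on low counts (adjusted p = 0.0565). In the vitamins against RANKL, Slc39a8, Slc39a14, Flvcr1, Fbxl5, Hmox1, Lcn2, Hfe and Ltf kept their calls whichever library was left out, but Ltf did not pass with voom and quality weights (adjusted p = 0.152). Abcg2 was lost without vitamin replicate 3 (adjusted p = 0.05001) and Myc without vitamin or RANKL replicate 1 or 3 (at most 0.0837). Cd163 was lost without any PBS or RANKL library or vitamin replicate 3 (at most 0.140), with no filter on low counts (0.0734) and with only the groups compared (0.115). Slc22a17 was lost without any library but vitamin replicate 2 (at most 0.112), with no filter (0.0749), with only the groups compared (0.0979), with the replicate block (0.0622) and with limma on log2(FPKM + 1) (0.0712).

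**Figure D4:**
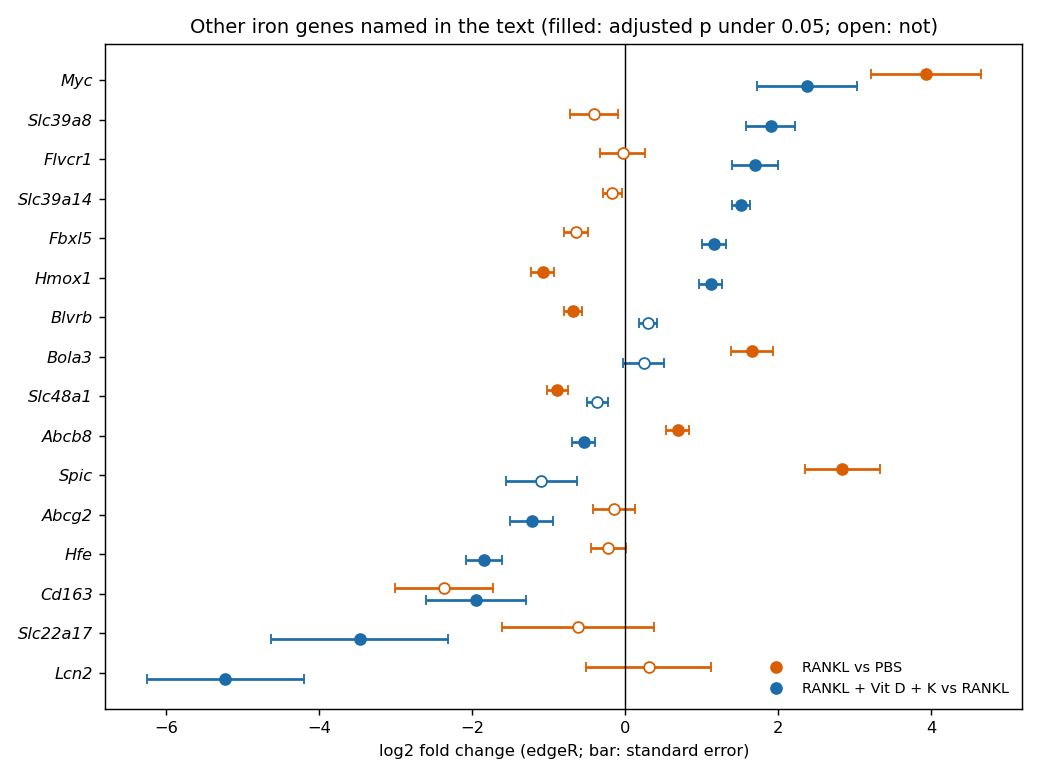
Log2 fold change from edgeR (horizontal axis, bar: standard error) of 16 of the other iron genes named above (Ltf, Hmox2 and Blvra are left out), in RANKL against PBS and in RANKL + Vit D + K against RANKL. Filled points passed an adjusted p of 0.05 and open points did not. Hmox1 lies at -1.08 with RANKL and at 1.12 with the vitamins, while Myc lies above 0 in both.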

How the data were processed

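One table with 9 libraries, 3 each of PBS, RANKL and RANKL + Vit D + K, was analysed, and groups and replicate numbers were taken from the labels. The authors deposited whole-number counts per gene, which are not normalized, and FPKM values, which the authors scaled to length and library size. The submitters' processing notes list cutadapt 1.9, HISAT2 2.0.4, StringTie 1.3.4d and edgeR. They also list the human build hg38, but the table's mouse gene identifiers and positions correspond to GENCODE M21 on GRCm38. Whether counting used strand or shared reads is not given in the sources used here. The value 4 was in excess among the counts (2.22 times the average of the numbers of 3s and 5s); whether each count is 1 fragment was not tested. Floors cover counting error only.

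Counts were fitted in R 4.3.3 with edgeR 4.0.16 (filterByExpr, TMM, quasi-likelihood test, 1 model of 9 libraries, Benjamini-Hochberg adjustment, threshold 0.05), and the method was tested on simulated data. The SE is the log2 fold change divided by the root of F. The members, gene lists and motifs were chosen with earlier results of these data known. Beside the 10 members, up to 6 genes per direction and comparison were named from the other iron lists: those past the threshold, with groups that did not overlap, and with the largest change. Hmox2 and Blvra were named after their values were seen. Figures were drawn with Matplotlib 3.10.9.

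Same-numbered PBS and RANKL libraries deviated together weakly (correlations of the deviations from group means of 0.122, 0.219 and 0.155). Libraries of different numbers were not compared in this way. The numbers were therefore taken only as a possible pairing, which the main test did not use. For the vitamin group the correlations were 0.00625, 0.0428 and 0.107 with RANKL and -0.0216, 0.0217 and 0.0237 with PBS, so no pairing was assumed.

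Alternatives were DESeq2 1.42.0, limma 3.58.1 on log2(FPKM + pseudocount of 0.01, 0.1 or 1), median-of-ratios size factors, voom with quality weights, a stricter or no filter, only the groups compared, counts divided by 4, ferritin pseudogene counts added, the replicate block and each library left out. The paired test of the ferritin ratio was chosen after seeing the data. Promoters of Slc40a1, Slc11a2 and Heph were not analysed here.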

Additional observations from a re-analysis of the deposited data

How the results depend on the processing

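The calls of Fth1, Slc40a1, Slc11a2 and Steap4 in the vitamins against RANKL, and of Tfrc, Slc11a1, Slc11a2 and Steap3 in the vitamins against PBS, held in every alternative run. Ftl1 in the vitamins against RANKL was lost with limma on log2(FPKM + 0.1) and log2(FPKM + 1) (adjusted p = 0.0641 and 0.0539), and against PBS in 12 of 21 alternatives. In RANKL against PBS the number of the 10 genes called was 3, against 7 with quality weights, 6 with only the groups compared and 0 to 6 with 1 library left out. It was 0 in edgeR without PBS replicate 1, PBS replicate 3 or RANKL replicate 2, where 6, 6 and 7 had an unadjusted p under 0.05, and DESeq2 called 4 on all libraries. The number of other iron genes called there was 7, against 12 with DESeq2, 11 with counts divided by 4 and with limma at pseudocounts of 0.1 and 1, 17 with quality weights, 15 with only the groups compared and 0 to 15 with 1 library left out (0 without PBS replicate 3, where 13 had an unadjusted p under 0.05). In the vitamins against RANKL it was 30, against 19 with only the groups compared, 45 with quality weights and 13 to 43 with 1 library left out, and in the vitamins against PBS 31, against 45 with quality weights and 17 to 39 with 1 library left out. The share of all genes called moved as well. In RANKL against PBS it was 3.61%, against 17.7% with quality weights, 10.6% with only the groups compared, 8.93% with DESeq2 and 0.709 to 10.7% with 1 library left out. For the vitamins against RANKL it was 33.7%, against 62.9% with quality weights, 23.9% with only the groups compared and 18.1 to 46.4% with 1 library left out, and for the vitamins against PBS 40.8%, against 64.1% with quality weights and 26.8 to 49.8% with 1 library left out. The causes were not tested.

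Directions turned only in results that had not passed. The log2 fold change of Cp in RANKL against PBS became 0.0397, 0.0265 and 0.0063 with limma at pseudocounts of 0.01, 0.1 and 1 and 0.047 with quality weights. With 1 library left out it ran from -0.48 to 0.40, above 0 at 0.40, 0.15 and 0.07 without PBS replicate 1, RANKL replicate 2 or RANKL replicate 3. In the vitamins against RANKL it ran from -0.43 to 0.21, above 0 without RANKL replicate 1, and in the vitamins against PBS from -0.44 to 0.18, above 0 without PBS replicate 1. Steap3 in the vitamins against RANKL became -0.0871, -0.0864 and -0.0797 with limma at the same pseudocounts, and ran from -0.0893 to 0.22 with 1 library left out, below 0 without vitamin replicate 1 or RANKL replicate 3. Slc11a2 in RANKL against PBS ran from -0.26 to 0.019, above 0 without PBS replicate 1. The log2 difference of the Ftl1 to Fth1 ratio between the vitamins and PBS ran from -0.31 to 0.0036 with 1 library left out.

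With the replicate block, 4 of the 9 tested genes were called in RANKL against PBS (Fth1 added), 6 in the vitamins against RANKL (Slc11a1 added, adjusted p = 0.0462) and 6 in the vitamins against PBS (Fth1 added, adjusted p = 0.0211). Of all genes tested 4.85%, 34.5% and 41.4% were called with the block, against 3.61%, 33.7% and 40.8% without it. The block changed no other member's call. Of the other iron genes 9, 31 and 32 were called with it, and in RANKL against PBS it added Fbxl5 (log2 -0.64, adjusted p = 0.0167) and Slc25a37 (log2 -0.82, adjusted p = 0.0164) and lost none of the 7. It added 3 (Blvrb, Nfs1 and Spic) and lost 2 (Slc22a17 and Slc25a28) in the vitamins against RANKL. In the vitamins against PBS it added 2 (Bach1 and Hif1a) and lost 1 (Ppox). A pairing of the vitamin libraries with the others was not assumed (correlations from -0.0216 to 0.107), although the block uses their replicate numbers too.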

Other observations

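Other iron genes, chosen after their values were seen, also differed between RANKL + Vit D + K and RANKL. Their single calls with 1 library left out are not given. Of all other iron genes 30 were called in this comparison, and 13 to 43 with 1 library left out. Nfe2l2 encodes NRF2, a factor known to drive the ferritin, ferroportin and heme oxygenase genes. Its mean FPKM was 84.7 in PBS, 61.6 in RANKL and 98.3 with the vitamins, and it rose in the vitamins against RANKL (log2 0.84, SE 0.225, adjusted p = 0.0199) but did not pass in RANKL against PBS (log2 -0.58, adjusted p = 0.205). Slc25a37, the mitochondrial iron importer mitoferrin-1, was 27.1, 16.9 and 24.7 in the same order and rose with the vitamins against RANKL (log2 0.70, adjusted p = 0.0233). In RANKL against PBS it did not pass (log2 -0.80, adjusted p = 0.0598), and it passed with the replicate block (-0.82, adjusted p = 0.0164). Mcoln1, a lysosomal channel that releases iron, rose from 9.09 to 15.2 with the vitamins (log2 0.90, adjusted p = 0.0214).

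Of the genes that were lower, 3 are described here. Aco1, which becomes iron regulatory protein 1 when it lacks its iron-sulfur cluster, fell from 21.2 to 13.02 FPKM in the vitamins against RANKL (log2 -0.56, SE 0.111, adjusted p = 0.00600). Iscu, the scaffold of iron-sulfur assembly, fell from 26.1 to 13.2 (log2 -0.84, SE 0.136, adjusted p = 0.00271), and Alas1, the first enzyme of heme synthesis, from 16.5 to 10.0 (log2 -0.58, SE 0.108, adjusted p = 0.00473). All of them also lay below PBS with the vitamins by log2 values of -0.32, -0.88 and -0.59, which passed (adjusted p = 0.0448, 0.00142 and 0.00293).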
